A study of Mus musculus with 2 samples.

Results

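Genomic imprinting silences 1 parental copy of a gene, and several mouse miRNAs are cut from transcripts of imprinted loci. A miRNA hairpin yields a 5p and a 3p arm, and the arm loaded into Argonaute pairs with target transcripts mainly through its seed, bases 2 to 8. The 9 miRNAs described here come from 3 such loci outside the large Dlk1-Dio3 cluster. They were chosen by name from textbook knowledge of imprinting, with earlier results of these data known. They were 9 of the 1900 miRNA probes on a Toray 3D-Gene mouse array, with 1 spot each. From Igf2/H19, which encodes a fetal growth factor and a growth-restraining non-coding RNA, came miR-483-5p and both arms of miR-675. The wider Gnas locus, named after the gene of the stimulatory G protein alpha subunit, gave both arms of miR-296 and of miR-298. Mest, a paternally expressed gene, gave both arms of miR-335.

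RNA came from ID-8 LUC2 ovarian tumours, a luciferase-marked mouse ovarian surface epithelial line grown in the peritoneal cavity of C57BL/6 mice after an inoculum of 2000000 cells. All mice were 5 weeks old at purchase, and dosing began on day 14 and tumours were taken on day 42. The control group received control IgG and the other group bevacizumab, an antibody to human VEGF-A, each at 5 mg/kg 2 times a week. There was 1 array per group; the labels do not say whether an RNA was from 1 mouse or pooled, and they name tumour RNA in one place and cells in another. Differences below therefore compare 2 arrays, without a test between treatments and without p-values, and in bulk RNA fewer cells of a type and less RNA per cell cannot be told apart.

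The mature sequences of all 9 miRNAs were found in RefSeq (GRCm38.p6) and are shown 5′ to 3′ because base composition and seed are used below. Capitals mark the seed. The miR-675 hairpin lay inside H19 and the miR-483 hairpin inside Igf2, both on the minus strand of chromosome 7. The miR-335 hairpin lay inside Mest on the plus strand of chromosome 6. The miR-296 and miR-298 hairpins lay 378 bases apart on the minus strand of chromosome 2, inside no gene of the RefSeq table; the nearest was Gnasas1, the antisense transcript also called Nespas, at 14112 and 13652 bases.
mmu-miR-483-5p, chr7:142654968-142654989: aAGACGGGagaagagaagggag
mmu-miR-675-5p, chr7:142577112-142577133: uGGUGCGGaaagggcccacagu
mmu-miR-675-3p, chr7:142577078-142577099: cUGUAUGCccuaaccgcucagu
mmu-miR-296-5p, chr2:174267093-174267113: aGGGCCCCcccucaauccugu
mmu-miR-296-3p, chr2:174267058-174267079: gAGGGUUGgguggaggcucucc
mmu-miR-298-5p, chr2:174267553-174267575: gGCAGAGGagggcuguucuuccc
mmu-miR-298-3p, chr2:174267512-174267535: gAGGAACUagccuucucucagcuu
mmu-miR-335-5p, chr6:30741314-30741336: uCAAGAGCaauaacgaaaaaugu
mmu-miR-335-3p, chr6:30741354-30741375: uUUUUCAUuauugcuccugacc

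The 9 seeds were all different, and no other miRNA among the 1618 array probes with a RefSeq sequence shared one of them. The arms were 21 to 24 bases long. The miR-335 arms were poor in G and C (30.4% for 5p and 36.4% for 3p). The Gnas arms miR-296-5p, miR-296-3p and miR-298-5p were rich in them, at 66.7%, 68.2% and 65.2%. The 6 letters GGGCCC occurred in miR-296-5p, where they overlap the seed, and in miR-675-5p, outside it.

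Each array has 896 blank spots, and signals below are spot intensities less their mean, in scanner units. A spot's brightness depends on its probe, so it is compared between arrays and not read as abundance. The blanks averaged 72.8 units with an SD of 0.828 (control) and 185 units with an SD of 4.03 (bevacizumab), after trimming. A miRNA was called detected above the blank mean plus 2 SD, a limit of 1.66 units of signal for control and 8.06 for bevacizumab. By that limit 1416 and 940 of the 1900 miRNAs were detected, 917 of them on both arrays. Without normalization, the median of these 917 was 1.77 times as high on the bevacizumab array (log2 0.82). Control probes differed more: the 5 brighter than 100 units on both arrays were 4.61 to 5.11 times as high there. The median ratio of the 10 control probes detected on both arrays was 4.71. Ratios given below as without normalization are not corrected for this difference in scale, and no more RNA of a miRNA is read from them. The control array detected 5 of 5 epithelial miR-200 family members and the bevacizumab array 1 of 5. The summed signals of the epithelial, leukocyte, endothelial, erythroid, fibroblast and mural, and muscle marker lists ranged from 278 to 3276 units in the control and from 22.1 to 464 units with bevacizumab, and the liver marker miR-122-5p was detected on neither. Over all 1900 probes the sums were 294778 and 180367 units. After the quantile normalization described below, fibroblast and mural markers ran from log2 -3.72 (miR-143-3p) to 0.39 (miR-214-3p). The 2 leukocyte markers detected on both arrays were at -0.81 (miR-223-3p) and 0.33 (miR-150-5p). All markers of the other lists detected on both arrays were below 0. Endothelial miR-126a-3p was at -2.87 and miR-126a-5p at -1.74, erythroid miR-451a at -2.84 and epithelial miR-200b-3p at -1.67. In the muscle list miR-1a-3p was at -4.28 and miR-133a-3p at -1.18. The median of all 917 was 0.14. The part of cell makeup in the values below was not tested.

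Of the 9 imprinted miRNAs, 8 were detected in the control and 6 with bevacizumab. All 3 from Igf2/H19 were detected on both arrays, and so were 3 of the 4 from Gnas. Both from Mest were seen on the control array alone. miR-298-3p was detected on neither, at -0.29 and 2.62 units. Detected here means above the blank limit, which most of the No Probe spots described below also passed.

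**Figure D1:**
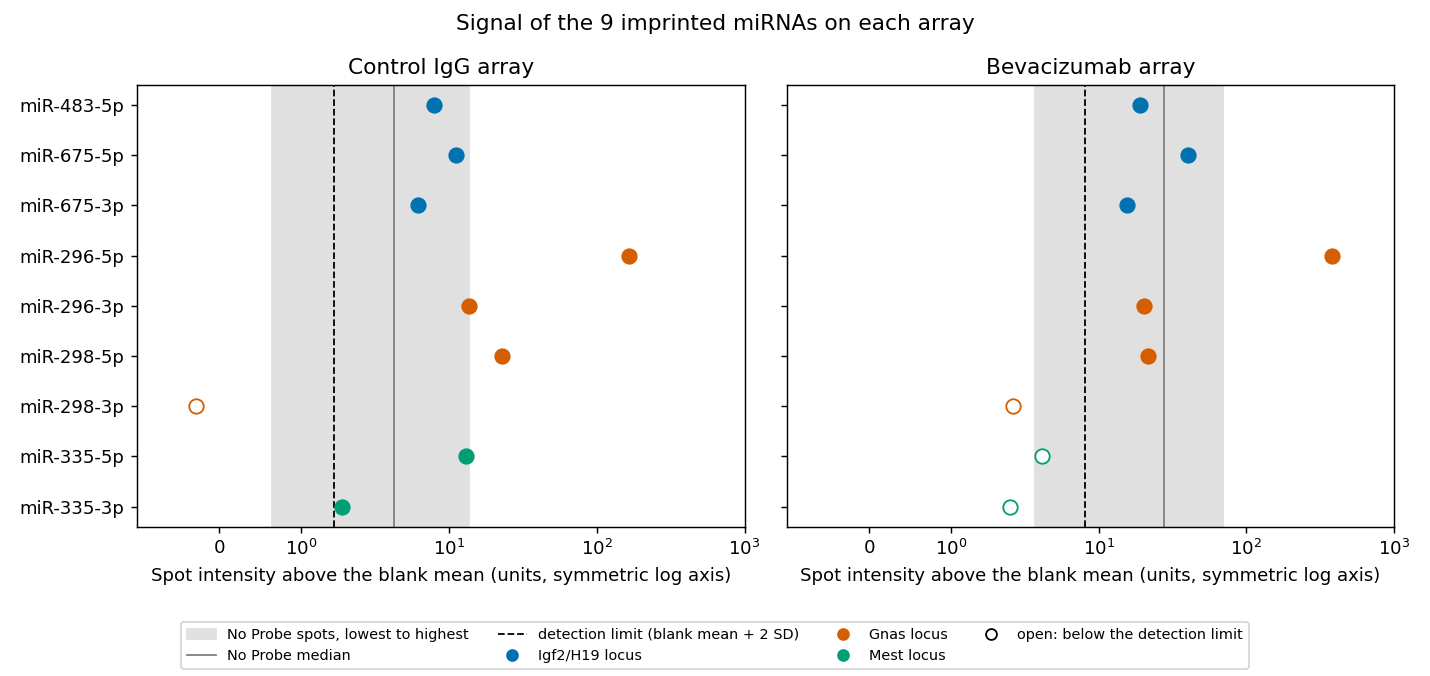
Spot intensity above the blank mean (units, symmetric log axis) of the 9 imprinted miRNAs on the control IgG array (left) and the bevacizumab array (right); each point is 1 spot, coloured by locus and open where it is below the dashed detection limit. The grey band spans the 174 spots named No Probe and the grey line is their median. miR-296-5p lies to the right of the band on both arrays, at 165 and 382 units.

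Another kind of spot with no named miRNA was brighter than the blanks. The arrays carry 174 spots named No Probe, whose make-up the files do not describe. Their median signal was 4.26 units in the control (range 0.639 to 13.6) but 27.7 units with bevacizumab (range 3.70 to 69.7), a ratio of 6.51. The blank limit was passed by 168 of the 174 on the control array and by 173 on the bevacizumab array. A call of detected by that limit therefore does not show that the named miRNA was present. On the bevacizumab array only miR-296-5p was above every No Probe spot, and miR-675-5p was the only other imprinted miRNA above their median. On the control array miR-296-5p, miR-298-5p and miR-296-3p were above every No Probe spot, the last at 13.7 units against a highest No Probe spot of 13.6. Many miRNA probes were dimmer than these spots: 38.5% of the 1900 lay below the No Probe median in the control and 74.0% with bevacizumab. Above the highest No Probe spot were 681 of the 1900 in the control but 291 with bevacizumab. The fall in the number of imprinted miRNAs above it is therefore not read as particular to them. How much signal unrelated to the named miRNA each probe carries was not tested.

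miR-296-5p had the brightest spot of the set. It is known from human endothelial cells as an angiogenesis-related miRNA, where it lowers HGS, a protein that sorts growth factor receptors for degradation. Its signal was 165 units in the control and 382 with bevacizumab, ranks 163 and 89 of the 1900. The blank-subtracted signal was thus 2.31 times as high on the bevacizumab array (log2 1.21 ± 0.16, the error from blank spots and repeat spots combined). For the control probes the median ratio was 4.71. After quantile normalization, which forces the arrays onto 1 common distribution, the difference was 2.11-fold higher (log2 1.08). The authors' deposited table lists 327 and 314 units for it, so in that scaling it was near equal (log2 -0.06). Its local background was 174 units (control) and 351 units (bevacizumab), against 62.0 to 75.4 and 150 to 188 for the other 8. The spots themselves read 238 and 567 units, so less signal remained above local background than above the blank mean. The signals, ranks and ratio above are not corrected for this, and the error does not cover it. With local background subtracted before quantile normalization the log2 difference was 0.51.

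The opposite arm, miR-296-3p, was dim. It measured 13.7 and 20.4 units, 1.48 times as high on the bevacizumab array (log2 0.57 ± 0.34), and 1.04-fold higher after quantile normalization. Of the 174 No Probe spots, 152 were as bright or brighter on the bevacizumab array. The 2 arms differed in their log2 ratios by 0.64 ± 0.37, less than 2 errors. Of the 917 miRNAs, 68.2% had a lower ratio before normalization than miR-296-5p and 41.0% a lower one than miR-296-3p.

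miR-298 comes from the neighbouring hairpin. miR-298-5p measured 22.9 units in the control and 21.7 with bevacizumab, near equal without normalization (log2 -0.07 ± 0.31) while the median miRNA was 1.77 times as high. Its ratio was lower than that of miR-296-5p by a log2 difference of 1.28 ± 0.35. Against miR-296-3p the gap was 0.64 ± 0.46. After quantile normalization miR-298-5p was at log2 -0.13, within 2-fold, and in the authors' deposited table it was 2.53-fold lower (45.3 and 17.9 units). On the bevacizumab array 144 of the 174 No Probe spots were as bright or brighter.

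The H19 miRNA miR-675, which in mouse placenta restrains growth by lowering the Igf1 receptor, gave dim spots on both arrays. miR-675-5p measured 11.2 units in the control and 40.1 with bevacizumab. That is 3.57 times as high (log2 1.84 ± 0.24), the highest ratio of the 6, above 90.4% of the 917 miRNAs. After quantile normalization with the offset of 50 units, which shrinks the differences of dim spots, it was 1.44-fold higher (log2 0.52). On the bevacizumab array 15 of 174 No Probe spots were as bright or brighter, and on the control array 3.

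miR-675-3p measured 6.21 and 15.5 units, 2.50 times as high (log2 1.32 ± 0.45), and was 1.13-fold higher after quantile normalization. Its spots were the dimmest of the 6, and 4 of 896 blank spots and 168 of 174 No Probe spots reached its level on the bevacizumab array. Its ratio and that of miR-675-5p differed by 0.51 ± 0.51, so the arms could not be separated.

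miR-483-5p comes from the Igf2 transcript. It measured 7.91 and 19.1 units, 2.42 times as high (log2 1.28 ± 0.37), and was 1.14-fold higher after quantile normalization. The authors' deposited table lists it at 15.7 units on both arrays. Of the 174 No Probe spots, 155 were as bright or brighter on the bevacizumab array and 6 on the control array. Its bevacizumab spot was 4.75 blank SDs above the blanks. The ratio of miR-483-5p was below that of miR-675-5p by 0.56 ± 0.44. The other arm of that hairpin, miR-483-3p, was not among the 9; it measured 12.5 and 21.9 units, 1.76 times as high (log2 0.81 ± 0.32), close to the array median of 1.77.

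By locus, the 3 Igf2/H19 miRNAs among the 9 had log2 ratios from 1.28 to 1.84 without normalization, above the array median of 0.82, whereas miR-483-3p, of the same Igf2 hairpin, was at 0.81. The 3 detected Gnas miRNAs ran from -0.07 to 1.21. miR-675-5p and miR-298-5p, the ends of the range, differed by 1.91 ± 0.40. After quantile normalization that gap was 0.65, and miR-296-5p instead of miR-675-5p was the highest. These errors cover spot-to-spot variation within the arrays, not animals, labelling or hybridisation, and not the level of the No Probe spots. They take their repeat-spot SD from bright control probes; the dim control probe S-Probe7, at 4.29 and 14.5 units, had log2 SDs of 0.64 and 1.25 between its 8 spots, more than the errors given for the dim members.

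**Figure D2:**
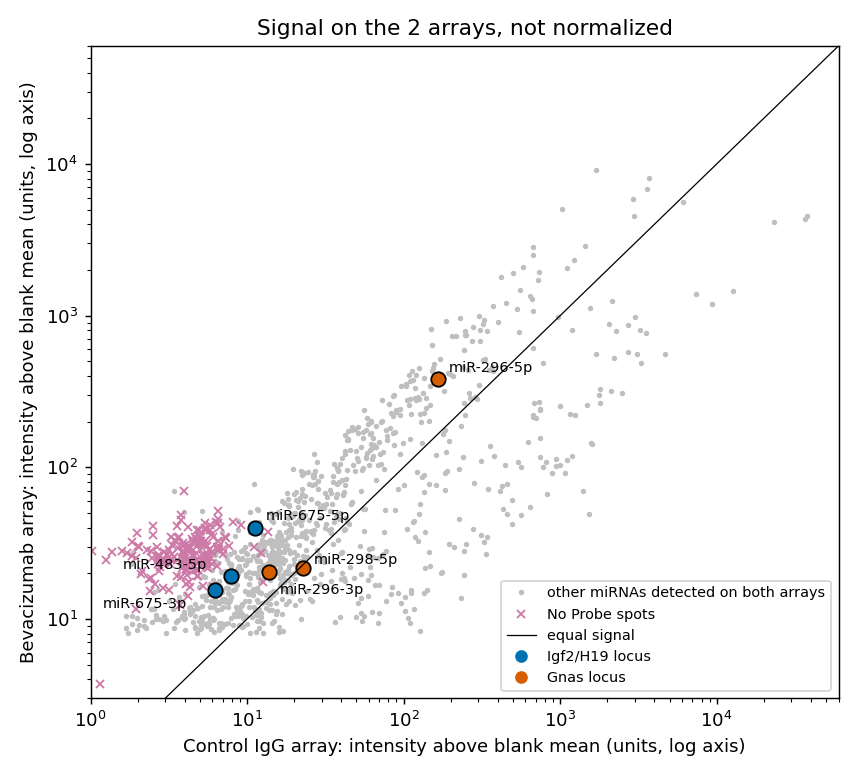
Blank-subtracted intensity on the control IgG array against the bevacizumab array (units, log axes, not normalized): grey points are other miRNAs detected on both arrays, crosses are No Probe spots of at least 1 unit on the control array, and large points are the 6 imprinted miRNAs detected on both. miR-296-5p, miR-675-5p, miR-675-3p, miR-483-5p and miR-296-3p lie above the line of equal signal, and miR-298-5p, at 22.9 and 21.7 units, lies on it within its error.

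miR-335, which is processed from Mest and is known in human breast cancer cells as a restrainer of metastasis, was detected on the control array alone. miR-335-5p measured 13.0 units on the control array, 15.7 blank SDs above the blanks, and 4.14 units on the bevacizumab array, 1.03 SDs above them. On the bevacizumab array 177 of 896 blank spots were as bright or brighter, and on the control array none was. Against the lowest detected signal of that array it was at least 1.61-fold lower without normalization, and at least 1.11-fold lower after quantile normalization with the offset. Loss from the detected set was common: 499 of the 1416 miRNAs detected on the control array were not detected on the bevacizumab array. miR-335-3p was barely above the limit on the control array, at 1.89 units, and was under the 5 SD limit there. As bright or brighter on that array were 30 of 896 blank spots and 165 of 174 No Probe spots. On the bevacizumab array miR-335-3p was at 2.50 units, and no bound could be given.

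Of the 6 detected on both arrays, 1 passed 2-fold upward after quantile normalization (miR-296-5p) and none downward, and their median log2 difference was 0.18. Of all 917 miRNAs, 10.5% passed 2-fold upward and 11.6% downward, and the median was 0.14. Without normalization 4 of the 6 passed 2-fold upward and none downward, against 40.7% and 16.1% of the 917. Neither count, over 6 miRNAs, is read here as differing from these shares. In the imprinted Dlk1-Dio3 cluster, 29 of 107 probes were detected on both arrays, 4 of them past 2-fold upward and 2 downward, with a median of 0.13 and a range from -2.15 (miR-487b-3p) to 2.28 (miR-770-3p). In the Sfmbt2 intron cluster, 23 of 71 were, none past 2-fold, with a median of 0.12 and a range from -0.05 (miR-466j) to 0.64 (miR-467g).

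**Figure D3:**
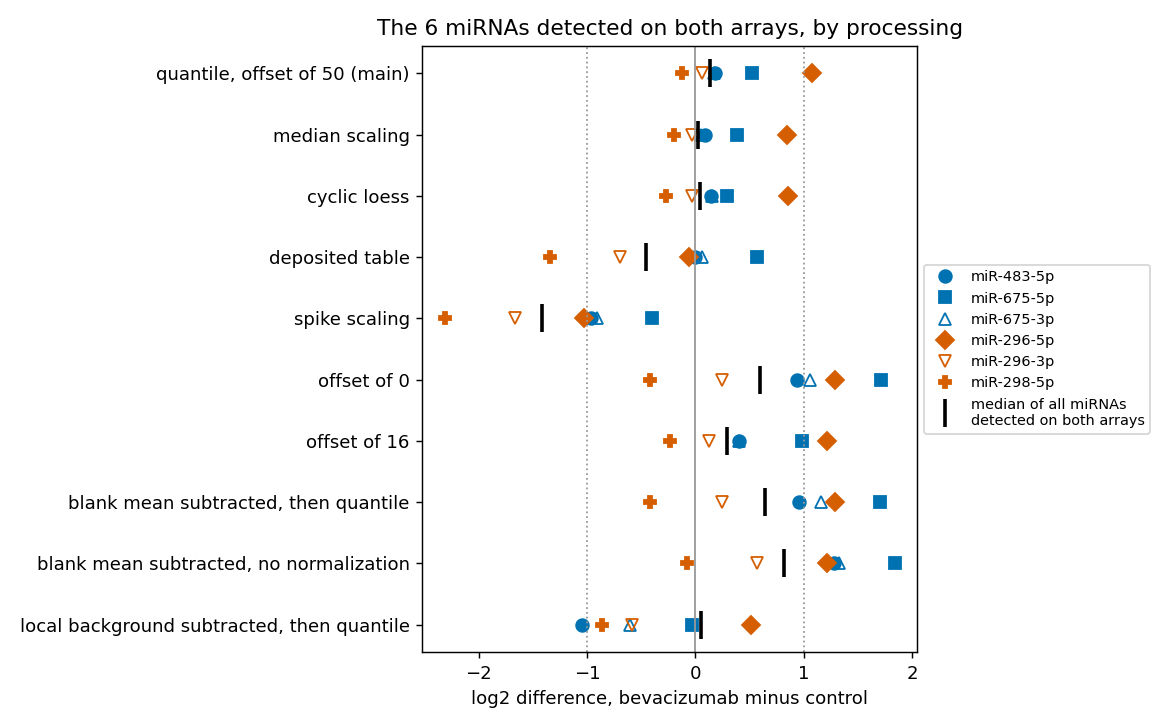
log2 difference, bevacizumab minus control, of the 6 imprinted miRNAs detected on both arrays under 10 ways of processing (rows); colours are loci, open symbols are 3p arms, black bars are the median of all miRNAs detected on both, and dotted lines mark 2-fold. miR-296-5p stays to the right of the black bar in all 10 rows and miR-298-5p to the left, while the black bar itself moves against 0; in 3 rows (not normalized, control-spot scaling, deposited table) the distances from the bar are nearly equal by construction.

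The sign of the difference changed with the processing for all but miR-298-5p. miR-675-5p and miR-675-3p were above 0 under 8 of 10 ways of processing, miR-483-5p under 7, miR-296-3p under 5 and miR-298-5p under none of the 10. Scaling to the control spots subtracts the same amount from every unnormalized log2 ratio; it put the median of the 917 at -1.42 and all 6 below 0, from -2.31 for miR-298-5p to -0.40 for miR-675-5p. miR-296-5p was above 0 under 8 and above the median of all detected miRNAs in all 10, by 0.39 to 0.94 on the log2 scale. miR-298-5p and miR-296-3p were below that median in all 10, miR-298-5p by 0.22 to 1.05 and miR-296-3p by 0.05 to 0.63. miR-675-5p, miR-675-3p and miR-483-5p were above it in 9 of 10; with the local background subtracted they were below it by 0.08, 0.66 and 1.09. No normalization, control-spot scaling and the deposited table are 1 ratio shifted by a constant, so their distances from the median are nearly equal by construction and count as 1 way. All 10 ways use the same 2 arrays and are not repeats of the experiment.

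Among the 785 miRNAs detected on both arrays with a RefSeq sequence, the log2 ratio without normalization and the share of G and C had a Spearman's rho of 0.20 and a Pearson's r of 0.33, across miRNAs of the same 2 arrays that are not independent replicates. The 28 with less than 40% G and C had a median log2 ratio of -2.57, and 30.1% of such miRNAs detected on the control array were also detected on the bevacizumab array. In the class from 60% to under 70%, which holds miR-675-5p and the Gnas arms miR-296-5p, miR-296-3p and miR-298-5p, the median was 0.91 over 279 miRNAs and 89.1% were detected again. Both miR-335 arms fall in the first class. The part of base composition in their loss was not tested. Without normalization 17 of the 28 below 40% passed 2-fold downward, against 16.1% of all 917. From 40% to under 50% it was 56 of 113, with a median log2 ratio of -0.89. In the 3 classes from 50% upward it was 32 of 292, 15 of 279 and 4 of 73, with medians from 0.84 to 0.96.

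The 6 were also set against miRNAs of like composition, within 5 percentage points of G and C. The medians of these like miRNAs lay between 0.84 and 0.90, so the order of the 6 could hardly change. The part of base composition in their differences was not tested. miR-675-5p was 0.99 above the median log2 ratio of its 332 like miRNAs, 25 of which were higher. miR-298-5p was 0.98 below the median of its 274, 237 of which were higher. miR-296-5p was 0.32 above that of 252 and miR-296-3p 0.28 below that of 212. miR-675-3p and miR-483-5p, both at 54.5% G and C, were 0.49 and 0.44 above the median of 291.

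**Figure D4:**
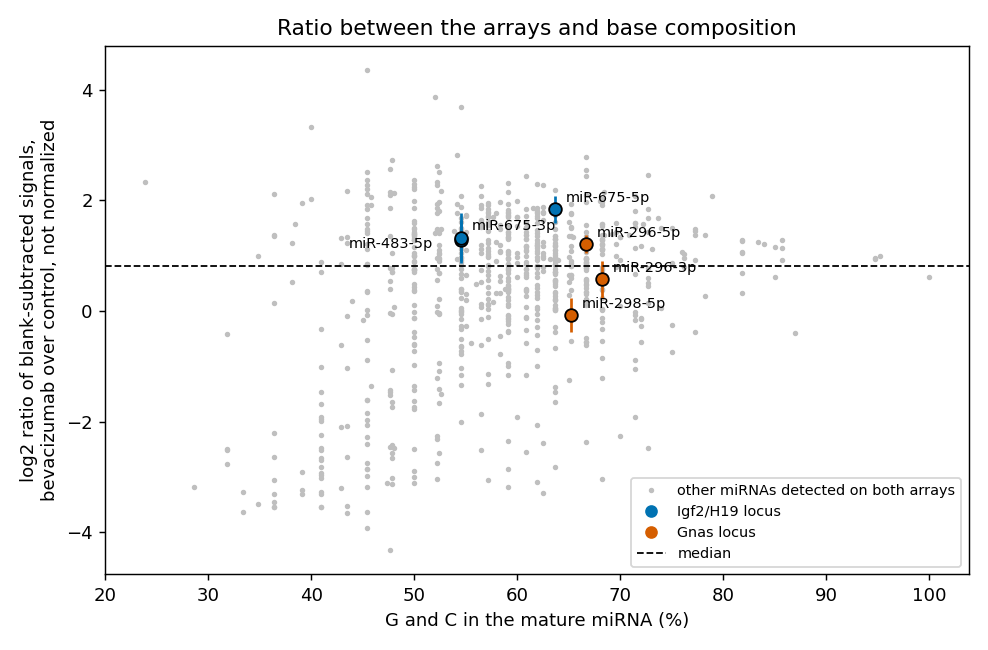
log2 ratio of blank-subtracted signals, bevacizumab over control, against the percentage of G and C in the mature miRNA; grey points are other miRNAs detected on both arrays, the dashed line is the median of 0.81 over those with a sequence, and large points with bars are the 6 imprinted miRNAs with the error from blank and repeat spots. miR-675-5p, miR-675-3p, miR-483-5p and miR-296-5p lie above the dashed line and miR-298-5p below it, each by more than its bar. miR-296-3p lies below it by less than its bar. The bars take their repeat-spot SD from bright control probes. Dim control probes varied more between spots, so the bars are too short for dim spots.

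In each case the miRNAs nearest in level on both arrays, by distance in the plane of the 2 normalized log2 levels over 911 miRNAs, were taken as the most alike in pattern. Those of miR-296-5p were miR-7118-5p (156 and 362 units) and miR-7648-3p (166 and 405 units). For miR-675-5p they were miR-7662-5p and miR-6404, for miR-675-3p miR-6947-3p and miR-7051-5p, and for miR-483-5p miR-6925-3p and miR-6962-3p. For miR-296-3p they were miR-491-5p and miR-346-5p, and for miR-298-5p miR-7016-3p and miR-500-3p. With 2 arrays, a shared level on both is all that this likeness measures.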

How the data were processed

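Each deposited scanner file gives, per the file headers, a spot intensity and a local background intensity (medians at 635 nm, from scans at 3 gains related by least squares), neither background-corrected nor normalized. Cy5-labelled total RNA was hybridised to 1 array per group, per the labels. No spot was marked as failed. The authors' deposited value table holds linear intensity values as well; set against the scanner values, it is the signal above the blank mean divided by 1 factor per array (0.505 and 1.22 units), with a median of 25.0, and leaves dim miRNAs empty. The sources used here do not name the software behind either.

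The blank mean and SD left out the highest and lowest 5% of blank spots. Normalized values used limma 3.58.1 in R 4.3.3: normexp with blank spots as negative controls, an offset of 50, then quantile normalization of the 1900 miRNA probes, as log2. The fold is a fixed size of 2, not a test. The error of a log2 ratio combines the blank SDs with a repeat-spot SD of 0.16 from the 5 control probes brighter than 100 units on both arrays, 8 spots each. Dim control probes repeated less well: log2 SDs on the control and bevacizumab arrays were 0.22 and 0.57 for Negative Control 3 (5.91 and 14.2 units), 0.26 and 1.12 for S-Probe2 (2.26 and 15.8 units) and 0.64 and 1.25 for S-Probe7 (4.29 and 14.5 units). Negative Control 1 and QC-Probe had spots at or below the blank mean, so no log2 SD was computed. The number of arrays limits the precision. Mature sequences were matched by name for 1618 of the 1900 probes. All 9 members are named, the 2 nearest miRNAs of each member detected on both arrays, and miR-483-3p. The members, lists and settings were chosen with earlier results of these data known.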

Additional observations from a re-analysis of the deposited data

How the results depend on the processing

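miR-296-5p, the member at least 2-fold higher after quantile normalization, reversed to log2 -0.059 in the authors' deposited table and to -1.03 under scaling to control spots (factor 4.71). The number of members at least 2-fold higher was 0 with median scaling, cyclic loess, the deposited table, control-spot scaling and local background, 3 at offset 0 and after subtracting the blank mean before quantile normalization, and 4 with no normalization. At least 2-fold lower were 1 in the deposited table, 3 with control-spot scaling and 1 with local background. The median of the 6 was -0.029, -0.99 and -0.59 in those settings, 0.99 at offset 0, 0.40 at offset 16, 1.06 after subtracting the blank mean and 1.24 without normalization. The count of all miRNAs past 2-fold was 202 (96 higher, 106 lower), and became 324 in the deposited table (27 and 297), 644 with control-spot scaling (5 and 639), 462 at offset 0 (306 and 156), 469 after subtracting the blank mean (313 and 156) and 521 without normalization (373 and 148). The split was 55 and 110 with median scaling, 61 and 129 with cyclic loess, and 153 and 141 with local background. A detection limit that 5 of the 174 No Probe spots of each array exceed was added after seeing the data. It left 5 members detected on the control array, 1 on the bevacizumab array and 1 on both, with a median of 1.08. Of all 1900 miRNAs it left 854 on the control array, 374 on the bevacizumab array and 371 on both. The causes were not tested, beyond the smaller shrinkage that a lower offset brings by construction. No replicate could be left out, and no paired analysis was possible because each group has 1 array.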

Other observations

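miR-296-5p and miR-298-5p are old entries of the miRNA catalogue, as is miR-335-5p. Of the 121 miRNAs detected on both arrays with a catalogue number no higher than that of miR-335-5p, 63 passed 2-fold downward and 3 upward after quantile normalization, with a median log2 difference of -1.02. Of all 917, 11.6% passed downward and 10.5% upward, with a median of 0.14. miR-296-5p was the third highest of the 121 (log2 1.08) and miR-298-5p was at rank 35 (log2 -0.13). By the ratio without normalization they were at ranks 10 and 32. This grouping was made after the values were seen.

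The letters GGGCCC, which read the same on both strands, were in 11 of 1618 mature sequences (0.68%), among them miR-296-5p and miR-675-5p. Of the 10 detected on both arrays, 5 passed 2-fold upward and 2 downward after quantile normalization, with a median log2 difference of 0.79, against 10.5% and 11.6% of all 917 and a median of 0.14. miR-296-5p is 1 of the 5, and the letters were picked after the values of it and miR-675-5p, both among the 10, were seen. The letters are all G and C. After quantile normalization 26 of the 73 miRNAs with at least 70% G and C passed 2-fold upward and 3 downward. From 60% to under 70% it was 36 and 9 of 279. No property of the letters is read from these counts.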
